A study of Mus musculus with 8 samples.

Results

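The miRNAs described here come from the imprinted Dlk1-Dio3 locus, and they were chosen by the number in their name, from the list of hairpins that lie in this locus. Of 688 mature miRNAs measured, 72 names met this rule, and they were read by 83 of the 752 miRNA assays. RNA came from the gastrocnemius of 6- to 8-week-old female C57Bl/6 mice in a model of neurogenic heterotopic ossification (NHO), in which muscle injury by intramuscular cardiotoxin (CDTX) is combined with spinal cord injury (SCI). The controls were PBS injection for CDTX and SHAM surgery for SCI, so the conditions were CDTX + SCI, CDTX + SHAM, PBS + SCI and PBS + SHAM, each at day 2 (D2) and day 4 (D4), with 1 pool of 3 muscles per condition and day. Per the methods, every mouse had both SCI or SHAM surgery and both injections, CDTX in the left and PBS in the right hindlimb, so the CDTX and PBS pools of a surgery and day may share mice, and the PBS muscle is not that of an animal free of CDTX. The labels do not say which muscles went into a pool. The study used these pools to ask how miRNA levels in muscle respond to each injury and to both together.

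The Dlk1-Dio3 locus carries one of the largest groups of miRNAs in mammals. The miRNAs are made from the maternal chromosome, from the long noncoding transcripts Meg3, the antisense of Rtl1, Rian and Mirg, while the protein-coding genes Dlk1, Rtl1 and Dio3 are expressed from the paternal one. In mouse skeletal muscle the transcription factor MEF2A drives the noncoding transcripts, and the miRNAs have been studied for roles in muscle stem cells and regeneration. The hairpins of the Rtl1 antisense transcript, miR-431, miR-433, miR-127, miR-434 and miR-136, are fully complementary to the Rtl1 mRNA.

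In RefSeq (GRCm38.p6), 70 of the 72 names matched a mature miRNA, all on the plus strand of chromosome 12, between the Mir770 hairpin (start 109563692) and the Mir410 hairpin (end 109743795). They stand for 68 miRNAs, because miR-409-3p and miR-409a-3p are one mouse miRNA read by a human-named and a rat-named assay, and so are miR-543 and miR-543-3p. The names miR-376c-3p and miR-487b-3p had no mature match. By hairpin number, 18 names belong to the stretch from Meg3 to Rtl1 (miR-770 to miR-136), 1 to Rian (miR-370-3p) and 53 to the Mirg array (miR-379 to miR-410). The unmatched miR-376c-3p and miR-487b-3p were placed in the array by number, without a RefSeq position of their own. The sequences of the miRNAs on which the results turn are given from 5′ to 3′ as in RefSeq, with the seed (bases 2 to 8, which pair with target mRNAs) in capitals. The first set holds miRNAs that fell after CDTX.
miR-434-3p: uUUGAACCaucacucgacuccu
miR-136-5p: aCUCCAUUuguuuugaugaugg
miR-136-3p: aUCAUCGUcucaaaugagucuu
miR-299-5p: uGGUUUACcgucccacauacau
miR-539-5p: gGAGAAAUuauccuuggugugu
miR-382-5p: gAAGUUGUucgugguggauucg
miR-154-5p: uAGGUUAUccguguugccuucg

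The second set holds miRNAs of the same locus with another pattern, either no call over all pools (miR-127-3p, miR-434-5p, miR-379-5p, miR-411-5p) or higher values after CDTX at weak signal (miR-376a-3p, miR-134-5p, miR-541-5p, miR-409-3p).
miR-127-3p: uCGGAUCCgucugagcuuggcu
miR-434-5p: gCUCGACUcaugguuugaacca
miR-379-5p: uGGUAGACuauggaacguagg
miR-411-5p: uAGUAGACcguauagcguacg
miR-376a-3p: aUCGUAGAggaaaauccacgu
miR-134-5p: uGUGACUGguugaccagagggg
miR-541-5p: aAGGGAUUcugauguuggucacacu
miR-409-3p: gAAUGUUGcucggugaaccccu

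The 70 matched names carried 65 different seeds, so the members are neighbours on the chromosome and not a seed family. None of the 15 miRNAs printed here shared its whole seed with another of them. Among all members 5 seeds occurred under more than 1 name, among them GGUAGAC of miR-379-5p and miR-1193-5p.

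Signal was recorded as the quantification cycle (Cp), which runs downward by about 1 cycle for each doubling of template. A Cp of 36 ends the recorded range, and a Cp of at most 32 is the detection threshold of the study. Of the 72 names, 20 (19 miRNAs) reached a Cp of at most 32 in at least 1 pool, 9 did so in all 8 pools, 36 gave signal only above 32 and 16 stood at 36 in every pool. These counts take 1 assay per name. By the second assay miR-667-3p also reached 31.67, and miR-382-3p, miR-544-3p and miR-758-3p, counted among the 16, gave a lowest Cp of 33.96, 35.02 and 35.38. The number detected per pool was 16 and 18 in the CDTX + SCI and CDTX + SHAM pools of D4, against 13 and 12 in the PBS + SCI and PBS + SHAM pools of that day. At D2 it was 9 in both CDTX pools, against 13 and 14 in the PBS + SCI and PBS + SHAM pools. The share detected of all 688 miRNAs moved the same way. At D4 it was 24.0% and 23.8% in the CDTX + SCI and CDTX + SHAM pools, against 21.2% and 20.5% in matched PBS pools. At D2 it was 20.6% and 21.1%, against 22.7% and 22.8%. Among the 72 names the shares in this order were 22.2% and 25.0%, against 18.1% and 16.7%, at D4. At D2 they were 12.5% in both CDTX pools, against 18.1% and 19.4%. Over all 688 miRNAs at most 165 were detected in a pool, and 388 to 436 of the 755 assays stood at 36. Of the 20 detected members, 6 were under the threshold only in CDTX pools of D4, and 1, miR-539-5p, only in PBS pools.

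Levels are given as log2 relative expression, for which the Cp was subtracted from the average Cp of 3 references (miR-125b-5p, miR-23b-3p, miR-24-3p), so that a difference of 1 is a 2-fold difference. The labelled tissue was checked against marker miRNAs. The striated muscle miRNA miR-133a-3p had a Cp between 19.74 and 22.95, while miR-208b-3p of the same list lay between 33.73 and 36. Of 9 neuronal markers, 3 stood at 36 in every pool. A Cp of at most 32 was reached by 2 of them, miR-128-3p (30.52 to 33.28) and miR-138-5p (31.63 to 32.70), and the rest gave signal only above 32. Between CDTX and PBS pools the marker lists moved: log2 of the summed level of 7 striated muscle miRNAs lay between 4.11 and 4.70 in CDTX pools, against 6.12 to 6.73 in PBS pools, and that of 6 leukocyte miRNAs between 0.84 and 1.67, against −1.31 to −1.19. Of the leukocyte markers tested, 4 rose and miR-150-5p fell (log2 −0.83, limma adjusted p = 0.0398), and of the endothelial ones miR-126-3p fell (log2 −0.77, limma adjusted p = 0.0277). In such tissue RNA, fewer cells of a type and less of a miRNA per cell cannot be told apart, and the part of these shifts in the results below was not tested.

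**Figure D1:**
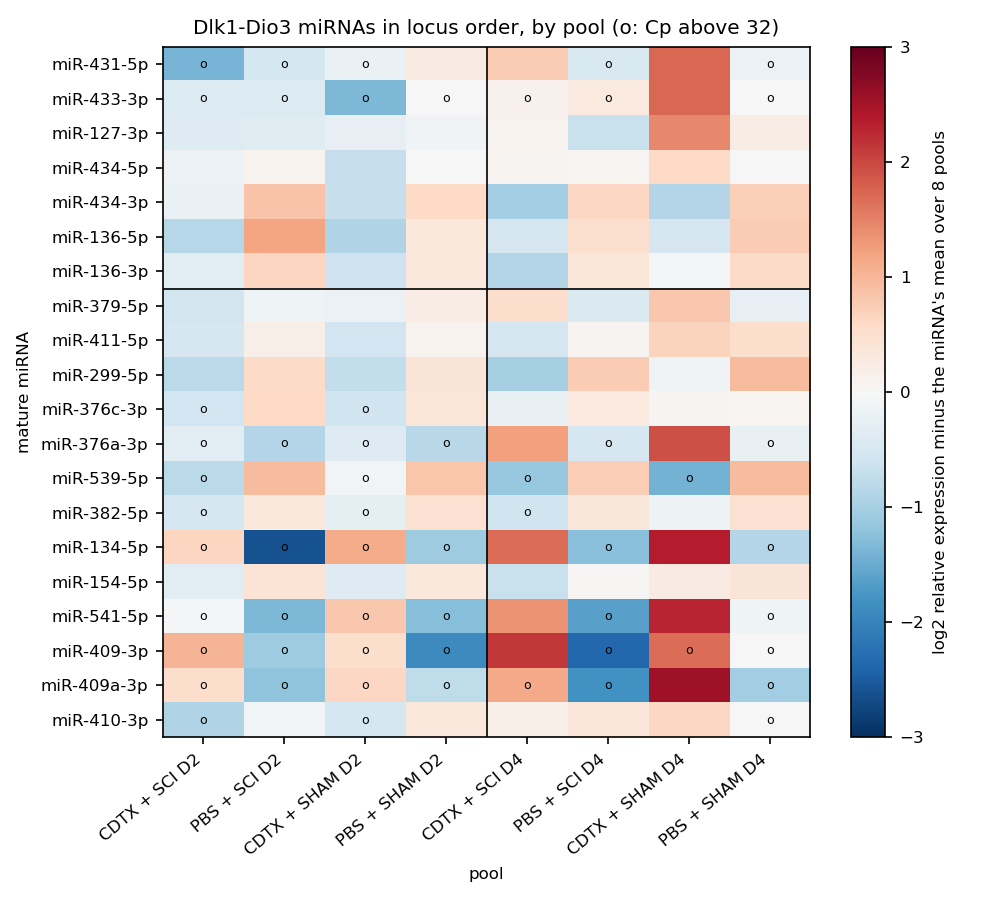
Level of the 20 detected names in each pool, as log2 relative expression minus the mean of the miRNA over the 8 pools (colour), in the order of the hairpins along the locus. Circles mark a Cp above 32, the black horizontal line separates the Meg3 to Rtl1 stretch from the Mirg array, and D2 lies left of D4. miR-434-3p, both arms of miR-136, miR-299-5p, miR-539-5p and miR-382-5p are lower in every CDTX pool than in any PBS pool, and miR-376a-3p, miR-431-5p, miR-541-5p and miR-134-5p are highest in the CDTX + SHAM pool of D4.

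CDTX was set against PBS over all 8 pools, with surgery and day in the model, for the 151 miRNAs with a mean Cp of at most 32. The locus had 12 miRNAs among them, and 8 fell after CDTX while 0 rose. Among the 151 miRNAs 34.4% fell and 35.8% rose (70.2% changed in all), so the share of members with a change lay close to that of all miRNAs and the difference was in the direction. The median log2 fold change was −0.72 over the 12 members and 0.09 over all 151. All 4 CDTX pools lay below all 4 PBS pools for 6 of the 12 members, against 30.5% of the 151 miRNAs, and the reverse was seen for 0 members, against 33.8%. Entry went by the mean over all 8 pools, so the direction partly depends on it. The falling miR-539-5p (Cp of 32.16 to 33.55 in CDTX pools), miR-382-5p (up to 32.22) and miR-376c-3p (up to 32.49) entered through earlier signal in PBS pools. In contrast, miR-541-5p (30.59 to 32.85 in CDTX pools, 32.76 to 34.06 in PBS pools) stayed out. The calls of miR-539-5p, miR-382-5p and miR-376c-3p are therefore a description. With a Cp of at most 32 in every pool, 5 of 9 members fell and 0 rose, against 44 and 39 of 116 miRNAs. These p-values come from limma with Benjamini-Hochberg adjustment over 151 miRNAs, and they measure the spread between single pools of different surgery and day.

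Of the 12 members, miR-539-5p had the largest fall. It comes from the middle of the Mirg array, and its log2 level was −7.33 and −6.62 in the CDTX + SCI and CDTX + SHAM pools of D2, and −7.67 and −7.94 in those of D4. In the PBS + SCI and PBS + SHAM pools it was −5.57 and −5.70 at D2, and −5.80 and −5.59 at D4. The PBS pools kept within a narrow band, and every CDTX pool lay below it, with a Cp of 32.16 to 33.55 that is past the detection threshold. The log2 fold change was −1.73 ± 0.24 (SE, 0.302-fold, limma adjusted p = 0.00058). miR-539-5p entered the test through its PBS pools (Cp of 30.38 to 30.97), so its size and call are a description.

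miR-434-3p, from the Rtl1 antisense transcript, is known in mouse muscle for limiting apoptosis of myocytes. Its log2 level was −3.56 and −4.05 in the CDTX + SCI and CDTX + SHAM pools of D2, and −4.39 and −4.24 in those of D4, against −2.50 and −2.78 in the PBS + SCI and PBS + SHAM pools of D2 and −2.74 and −2.66 in those of D4. The groups did not overlap on either day. The fold change was log2 −1.39 ± 0.19 (SE, 0.381-fold, limma adjusted p = 0.000545).

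miR-136-5p comes from the next hairpin, 766 bases on from start to start, and it had the earliest mean signal of the locus. Its log2 level in the CDTX + SCI and CDTX + SHAM pools was −4.13 and −4.18 at D2 and −3.77 and −3.78 at D4. In the PBS + SCI and PBS + SHAM pools it was −2.10 and −2.96 at D2 and −2.80 and −2.53 at D4. The highest value of all was that of PBS + SCI at D2, and CDTX pools were again lower throughout. The fold change was log2 −1.37 ± 0.23 (SE, limma adjusted p = 0.0012). The other arm of the hairpin, miR-136-3p, fell by 0.94 ± 0.22 on the log2 scale (limma adjusted p = 0.00645), with levels between −6.57 and −5.75 in CDTX pools and between −5.40 and −5.07 in PBS pools.

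Of the Mirg array, miR-299-5p had log2 levels of −5.11 and −5.03 in the CDTX + SCI and CDTX + SHAM pools of D2 and −5.28 and −4.39 in those of D4. The matched PBS pools stood at −3.72 and −3.91 at D2 and at −3.54 and −3.34 at D4. The CDTX values were apart from those of PBS on both days, and the log2 fold change was −1.33 ± 0.20 (SE, limma adjusted p = 0.000839). A smaller fall was seen for miR-382-5p, at log2 −0.78 ± 0.15 (limma adjusted p = 0.00243), whose levels of −6.80 to −6.34 in CDTX pools did not reach those of −5.88 to −5.74 in PBS pools.

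The calls of the last 2 falling miRNAs were the least secure. miR-376c-3p had log2 levels of −6.95 to −6.28 in CDTX pools and −6.30 to −5.75 in PBS pools (log2 fold change −0.65 ± 0.22, limma adjusted p = 0.0295). For miR-154-5p the levels were −5.37 to −4.47 in CDTX pools and −4.68 to −4.30 in PBS pools, with a log2 fold change of −0.57 ± 0.21 (limma adjusted p = 0.0406). Both ranges overlapped, and each call held under 8 alternatives (of 16 for miR-376c-3p and of 18 for miR-154-5p), with limma adjusted p-values up to 0.112 and 0.165.

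**Figure D2:**
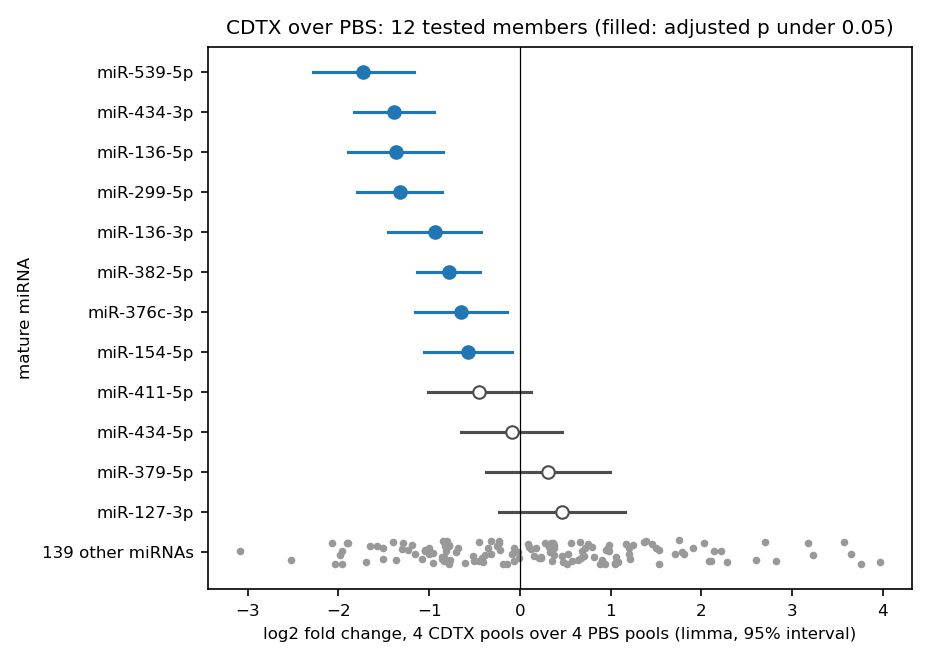
Log2 fold change of 4 CDTX pools over 4 PBS pools (x axis) for the 12 members with a mean Cp of at most 32, with 95% intervals from limma, and for the 139 other miRNAs tested (grey, spread vertically for sight only). Filled points have an adjusted p under 0.05: 8 members lie below 0 with filled points, and the 4 open ones run between −0.45 and 0.46.

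The other 4 tested members had no call. miR-127-3p, which promotes myogenic differentiation in mouse muscle cells, had log2 levels of −4.21 and −4.07 in the CDTX + SCI and CDTX + SHAM pools of D2, and −3.71 and −2.37 in those of D4. The PBS + SCI and PBS + SHAM pools had −4.18 and −3.93 at D2, and −4.48 and −3.61 at D4. The CDTX + SHAM pool of D4 stood alone above the others, and the log2 fold change over all pools was 0.46 (95% interval −0.24 to 1.15, limma adjusted p = 0.197). It became a call, at 0.72 (limma adjusted p = 0.0438), when the CDTX + SHAM pool of D2 was left out.

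For miR-379-5p, the first hairpin of the Mirg array, the log2 fold change was 0.31 (95% interval −0.37 to 0.99, limma adjusted p = 0.356), and for miR-411-5p, the next one, −0.45 (−1.02 to 0.12, limma adjusted p = 0.135). The value of miR-434-5p was −0.09 (−0.65 to 0.46, limma adjusted p = 0.728). All 4 intervals include 0, and those of miR-411-5p and miR-434-5p also reach changes the size of the smaller falls. For miR-411-5p, 2 alternatives gave a call: without the CDTX + SHAM pool of D4 it was −0.71 (limma adjusted p = 0.0141), and with miR-24-3p alone as reference −0.77 (limma adjusted p = 0.0258).

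Members next to each other on the chromosome were compared directly. Cp differences between neighbouring members within a pool need no reference miRNA, and they were compared between CDTX and PBS pools for the 10 pairs of consecutive members, in locus order, among the 11 tested miRNAs with a RefSeq position. The arms of the miR-434 hairpin lie 37 bases apart from start to start. The log2 ratio of miR-434-5p over miR-434-3p was −1.35 ± 0.76 in CDTX pools and −2.65 ± 0.10 in PBS pools (SD, n = 4 each), a difference of 1.30. The ranges, −2.01 to −0.54 in CDTX pools and −2.77 to −2.56 in PBS pools, did not overlap. The exact two-sided permutation p was 0.0286, the smallest that 4 against 4 pools allow, and 0.0952 after adjustment over the 10 pairs.

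The same smallest p, and the same adjusted exact permutation p of 0.0952, was found for a pair of hairpins 454 bases apart, miR-411-5p over miR-299-5p, with a log2 ratio of 0.81 ± 0.26 in CDTX pools and −0.06 ± 0.16 in PBS pools (SD, n = 4 each). It was also found for miR-539-5p over miR-382-5p, at −0.80 ± 0.62 in CDTX pools and 0.14 ± 0.12 in PBS pools. In contrast, the log2 ratio of miR-434-3p over miR-136-5p was −0.10 ± 0.55 in CDTX pools and −0.07 ± 0.25 in PBS pools (exact permutation p = 0.943). None of the 10 pairs passed the threshold after adjustment. Between members the Pearson correlation over the 8 pools ran from −0.57 (miR-434-3p with miR-379-5p) to 0.96 (miR-299-5p with miR-382-5p and with miR-136-3p), given as a description of pools that share the CDTX and PBS split and the reference.

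**Figure D3:**
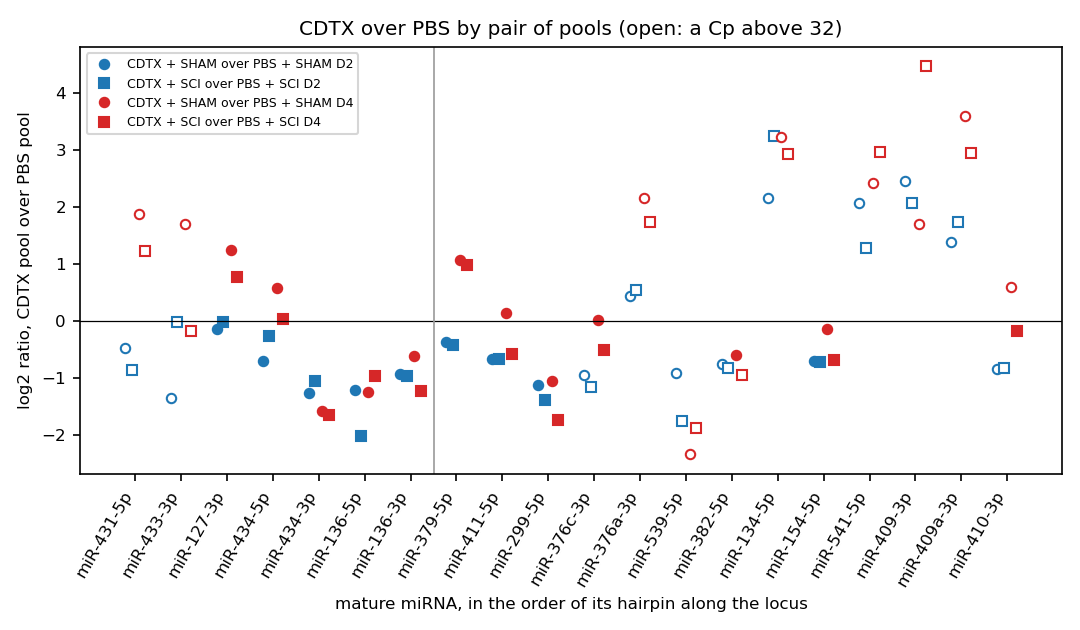
Log2 ratio of a CDTX pool over the PBS pool of the same surgery and day (y axis) for the 20 detected names in the order of their hairpins (x axis); circles are SHAM pairs, squares SCI pairs, blue D2 and red D4, and open symbols have a Cp above 32 in at least 1 pool of the pair. The grey line separates the Meg3 to Rtl1 stretch from the Mirg array. miR-434-3p, miR-136 and miR-299-5p lie below 0 in all 4 pairs, whereas miR-431-5p, miR-127-3p and miR-379-5p lie below 0 at D2 and above 0 at D4.

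At weaker signal the values went both ways. The 8 detected names with a mean Cp above 32 were not in the test over 151 miRNAs, and 6 of them passed the detection threshold only in CDTX pools of D4, so counts over them are a description. miR-134-5p, known in rodent neurons for its control of dendritic spine size through Limk1, had a Cp of 33.07 and 32.64 in the CDTX + SCI and CDTX + SHAM pools of D2 and of 31.74 and 31.45 in those of D4. In the PBS + SCI and PBS + SHAM pools the Cp was 35.67 and 33.94 at D2 and 34.63 and 34.43 at D4. CDTX pools thus gave earlier signal in each pair, with log2 ratios of 3.25 (SCI) and 2.16 (SHAM) at D2 and 2.93 and 3.24 at D4.

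miR-541-5p, close to the end of the array, had log2 levels of −7.34 and −6.47 in the CDTX + SCI and CDTX + SHAM pools of D2 and −5.91 and −4.98 in those of D4. The levels in the matched PBS pools were −8.62 and −8.54 at D2 and −8.89 and −7.41 at D4. The groups did not overlap. Its 4 CDTX over PBS ratios lay between log2 1.28 and 2.97.

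The next hairpin, miR-409, was read by 2 assays. The human-named assay of miR-409-3p gave log2 ratios of 2.07 (SCI) and 2.45 (SHAM) at D2 and 1.70 (SHAM) at D4, and in the SCI pair of D4 the PBS pool stood at 36, so that its ratio of 4.47 is open upward. The rat-named assay, listed as miR-409a-3p, gave 1.73 and 1.38 at D2 and 2.94 and 3.60 at D4. Both assays put all CDTX pools above all PBS pools. For miR-376a-3p, known for A-to-I editing of its precursor in the brain, the CDTX pools were above their PBS pools by log2 0.54 (SCI) and 0.43 (SHAM) at D2, and by 1.73 and 2.16 at D4. The last hairpin of the array, miR-410, had its 3p arm at log2 levels of −7.75 to −6.23 in CDTX pools and −6.91 to −6.47 in PBS pools, ranges that overlapped.

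When miRNAs with a mean Cp up to 34 were tested, the locus had 24 names in a table of 221. The count of falling members was 8, with miR-337-5p in (log2 −0.90 ± 0.21, limma adjusted p = 0.0103) and miR-154-5p out (limma adjusted p = 0.0604), and 5 members rose. These were miR-134-5p (2.90 ± 0.25, limma adjusted p = 0.000195), miR-409-3p (2.67 ± 0.53, 0.00504, with 1 PBS pool at 36), miR-541-5p (2.19 ± 0.31, 0.00158), miR-379-3p (1.26 ± 0.33, 0.0141) and miR-376a-3p (1.22 ± 0.34, 0.0181). Entry again went by the mean over all 8 pools. In PBS pools the Cp was 33.94 to 35.67 for miR-134-5p, 33.85 to 36 for miR-409-3p and 33.55 to 35.04 for miR-379-3p. In CDTX pools that of the falling miR-337-5p was 34.07 to 35.00. Entry of such members leaned on the group with earlier signal, so their calls are a description. Of all 221 miRNAs 24.9% fell and 36.2% rose (61.1% changed). The absence of rising members was thus seen at a mean Cp of at most 32 and not in this wider table. All 5 lay in the Mirg array, and so did 4 falling ones, miR-299-5p, miR-376c-3p, miR-539-5p and miR-382-5p. The other 4 falling members came from the Meg3 to Rtl1 stretch.

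The response to CDTX was then compared between days. At D2, all 9 members detected in each pool of a pair were below 0 in the SHAM pair and again all 9 in the SCI pair, against 50.0% and 51.5% of all miRNAs there. Their median log2 ratio was −0.73 in the SCI pair and −0.70 in the SHAM pair, against −0.03 and 0.01 over all miRNAs. At D4 the share below 0 was 8 of 11 in the SCI pair and 6 of 11 in the SHAM pair, against 48.1% and 48.8%, with medians of −0.59 and −0.15. By size, the count of members at least 2-fold lower was 3 in each pair, with miR-434-3p and miR-299-5p in all 4 pairs and miR-136-5p in 3 of them, its place in the SCI pair of D4 being taken by miR-136-3p, while 18.7% (SCI) and 16.7% (SHAM) of miRNAs were at D2 and 24.1% and 24.8% at D4. At least 2-fold higher were 2 members, miR-127-3p (log2 1.24) and miR-379-5p (1.07), both in the SHAM pair of D4, where 28% of miRNAs were. There were 0 such members in the SCI pair of D4, against 21.8% of miRNAs, and 0 in the SCI and SHAM pairs of D2, against 17.2% and 22.7%. With weaker signal included (Cp below 36 in each pool), more members were higher. In the SHAM pair of D4, 18 of 38 were at least 2-fold higher and 4 lower, against 37.1% and 18.8% of miRNAs. In the SCI pair of D4 it was 7 higher and 7 lower of 36, against 29.1% and 20.9%. At D2 it was 5 higher and 7 lower of 32 in the SCI pair, against 23.0% and 11.3%, and 7 and 7 of 34 in the SHAM pair, against 30.3% and 13.2%.

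In the model with a term for the difference between days, 1 member passed the test, against 3.31% of the 151 miRNAs that were higher at D4 and 0.662% that were lower (3.97% in all). miR-379-5p had log2 CDTX over PBS ratios of −0.42 (SCI) and −0.38 (SHAM) at D2, and of 0.97 and 1.07 at D4. Both pairs of a day moved together, below 0 at D2 and above it at D4. The response at D4 minus that at D2 was 1.42 ± 0.25 (SE, limma adjusted p = 0.0329). The call was lost when any of the 8 pools was left out, with limma adjusted p-values of 0.0578 to 0.212, while the difference stayed at 1.34 or above.

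Other tested members had differences of like sign without a call. For miR-127-3p the CDTX over PBS ratio was −0.03 (SCI) and −0.14 (SHAM) at D2 and 0.76 and 1.24 at D4 (difference 1.09 ± 0.45, limma adjusted p = 0.208), and for miR-376c-3p the difference was 0.81 ± 0.30 (limma adjusted p = 0.176). The opposite sign was seen for miR-539-5p, at −0.78 ± 0.38 (limma adjusted p = 0.236). Of the 12 tested members, 9 had a positive difference, against 84 of 151 miRNAs.

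At weaker signal, miR-431-5p, which in mouse targets Pax7 and promotes satellite cell differentiation, had log2 levels of −8.62 and −7.44 in the CDTX + SCI and CDTX + SHAM pools of D2, and −6.47 and −5.52 in those of D4. Its levels in the PBS + SCI and PBS + SHAM pools were −7.75 and −6.97 at D2, and −7.70 and −7.40 at D4. Within pairs of the same surgery, the CDTX pool was lower at D2 and higher at D4, while at D2 the CDTX and PBS values overlapped. In the table of 221 miRNAs the difference between days was 2.22 ± 0.38 (limma adjusted p = 0.0415). There the call was made for 3 members, miR-431-5p, miR-379-5p (limma adjusted p = 0.045) and miR-487b-3p, and 4.98% of miRNAs were called. For miR-487b-3p both CDTX pools of D2 stood at a Cp of 36, so its value has no firm size.

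Against this, 6 of the striated muscle markers were tested and 5 fell after CDTX, and the sixth, miR-206, a miRNA of regenerating muscle, had a difference between days of 2.59 (limma adjusted p = 0.0261). All 4 miRNAs of the Dnm3os transcript, miR-199a and miR-214 with both arms, rose after CDTX, by log2 1.08 to 2.82. Of the other imprinted miRNAs, miR-296-5p was the only one with a mean Cp of at most 32, at log2 0.17 (limma adjusted p = 0.674) for CDTX over PBS. Its difference between days was 1.82 (limma adjusted p = 0.0261). Whether these shifts take part in the pattern of the locus was not tested.

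The miRNAs outside the locus with the profile most like the mean of its 12 tested members were miR-328-3p (Pearson r = 0.96 over the 8 pools), miR-196a-5p (0.95), miR-99a-5p (0.94), miR-133a-5p (0.94), miR-378a-5p (0.94), miR-365a-3p (0.93), miR-133b (0.93) and miR-193b-3p (0.90), of 139 compared. That mean profile, centred on 0, was −0.50 in both CDTX pools of D2, −0.48 in CDTX + SCI and 0.06 in CDTX + SHAM at D4, and between 0.22 and 0.44 in the PBS pools. The CDTX + SHAM pool of D4 was thus the CDTX pool nearest to those of PBS. Of the miRNAs most like the members, miR-328-3p and miR-196a-5p had log2 fold changes after CDTX of −1.29 and −1.24. Those of miR-133a-5p and miR-133b of striated muscle were −1.90 and −1.70, and that of miR-99a-5p was −0.39 without a call (limma adjusted p = 0.0551).

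SCI was set against SHAM in the same model, and 0 of the 12 members and 0 of the 151 miRNAs (0%) passed the test by limma, with 0 members and 6 miRNAs at an unadjusted p under 0.05. The member furthest from 0 was miR-127-3p, at log2 −0.65 (95% interval −1.35 to 0.04, limma adjusted p = 0.862). The intervals of the other 11 included 0 too. The contrast of the CDTX response between SCI and SHAM mice also gave 0 calls among all miRNAs, with 0 members and 1 miRNA at an unadjusted p under 0.05, and the member values ran from −0.48 (miR-299-5p) to 0.07 (miR-434-3p). For D4 over D2 the counts were 0 calls, with 0 members and 19 miRNAs at an unadjusted p under 0.05.

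Single pairs of pools, which have no replicate, were compared next for SCI. In CDTX muscle at D4, 14 of 15 members detected in each pool were lower in the SCI pool than in the SHAM pool, against 77.1% of all miRNAs, and the median log2 ratio was −0.71 against −0.29. In PBS muscle at D4, 10 of 12 members were lower, against 81.0%, with medians of −0.20 and −0.22. In CDTX muscle of D2, the SCI pool was lower for 3 of 9 members and 61.3% of all miRNAs, and in PBS muscle of D2 for 4 of 13 members and 43.4%. At D2 no member detected in each pool was 2-fold apart between SCI and SHAM. Of all miRNAs so detected, 1.46% were at least 2-fold higher in CDTX muscle, and 0.658% higher and 0.658% lower in PBS muscle. Of the 4 pairs, the gap between the median of the members and that of all miRNAs was widest in CDTX muscle at D4.

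In CDTX muscle at D4, 2 members (miR-127-3p and miR-411-5p) were at least 2-fold lower with SCI, where 8.92% of all miRNAs were. The ones less than 2-fold apart included members of both CDTX patterns: miR-431-5p (log2 −0.96), miR-541-5p (−0.94), miR-154-5p (−0.91), miR-299-5p (−0.90), miR-136-3p (−0.83), miR-376a-3p (−0.71) and miR-134-5p (−0.69). Among those near 0 were miR-434-3p (−0.16), miR-136-5p (0.00) and miR-379-5p (−0.29). By its second assay miR-136-5p had −0.25 in this pair. With weaker signal, below 36 in both pools but above 32 in at least 1, 14 of 28 members were at least 2-fold lower with SCI, against 27.1% of all miRNAs in that range, and 0 were 2-fold higher, against 2.6%. The other pairs had no such excess of lower members. In CDTX muscle at D2, 2 of 22 were lower and 3 higher, against 11.1% and 9.2% of miRNAs. In PBS muscle of D2 it was 1 and 0 of 24, against 3.5% and 10.5%. For PBS muscle of D4 it was 3 and 3 of 25, against 9.5% and 4.4%. The 14 names lower in CDTX muscle at D4 include both miR-543 and miR-543-3p, which are 1 mouse miRNA. They also include miR-409a-3p (log2 −1.43), while the human-named assay of that miRNA gave 0.44. For miR-540-3p the mouse-named assay gave −1.60 and the rat-named one −0.06. Lower by both assays were miR-667-3p (−1.34 and −1.46) and miR-379-3p (−1.21 and −0.91). In CDTX muscle at D4, miR-433-3p, which in mouse targets Runx2, the transcription factor of osteoblasts, was one of the 14, with a Cp of 32.66 in the CDTX + SCI pool and 31.45 in the CDTX + SHAM pool (log2 −1.61). Its SCI over SHAM ratio did not keep this sign, at 0.93 in CDTX muscle of D2, and −0.41 (D2) and 0.28 (D4) in PBS muscle. Over all pools, tested with miRNAs of a mean Cp up to 34, it was −0.20 ± 0.48 (SE, limma adjusted p = 0.972).

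**Figure D4:**
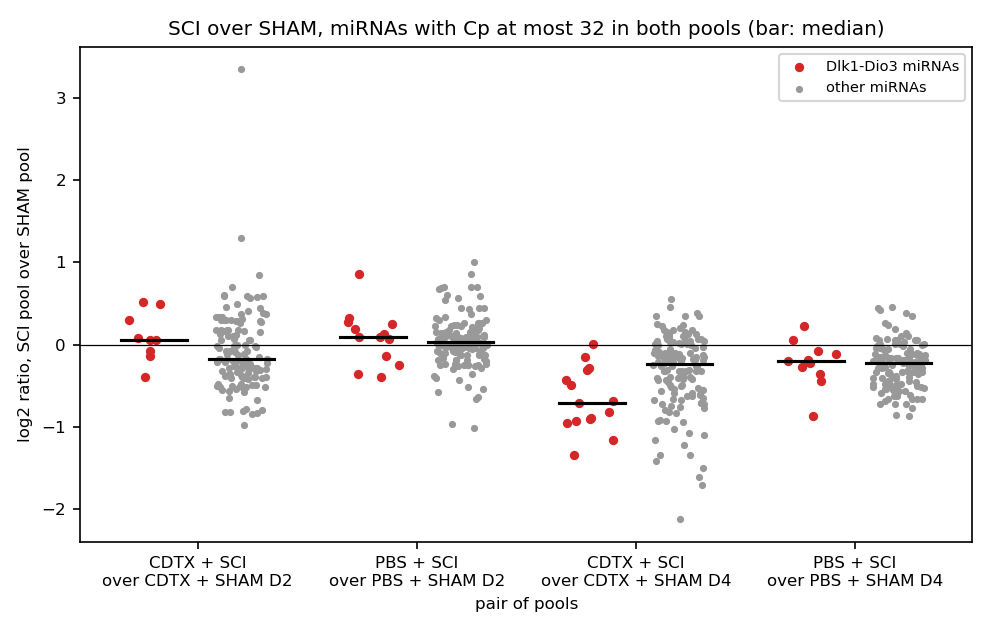
Log2 ratio of an SCI pool over the SHAM pool of the same injection and day (y axis) for members (red) and the other miRNAs (grey) detected in each pool of the pair; bars are medians and points are spread sideways for sight only. Red and grey points overlap in all 4 pairs, and in CDTX muscle at D4 the median of the members is −0.71. Over all miRNAs, members included, it is −0.29, whereas the grey bar leaves the members out.

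For 11 members a second assay of the same name gave a check of the reading. For miR-136-5p the assays gave like values: the mouse-named one fell by 1.37 and the human-named one by 1.36 on the log2 scale after CDTX (limma adjusted p = 0.0012 and 0.00162). Weaker members did not always match. For miR-540-3p the CDTX over PBS ratio was log2 −0.26 by the mouse-named and 2.62 by the rat-named assay in the SCI pair of D2, and −0.39 and 2.70 in that of D4. In the SCI pair of D2 the mouse-named assay stood at 36 in the CDTX pool and the rat-named one in the PBS pool, so these ratios have no firm size. For miR-379-3p the CDTX over PBS ratio was 1.14 by the rat-named and −0.14 by the human-named assay in the SCI pair of D2, and above 0 by both in the other 3 pairs. The target of the human-named miR-136-5p assay, from the assay list of the study, is 1 base longer at the 3′ end.
mouse-named miR-136-5p assay: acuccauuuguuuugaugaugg
human-named miR-136-5p assay: acuccauuuguuuugaugaugga

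For other members the assays gave different Cp values. The rat-named assay of miR-667-3p, with a target of 22 bases, had a Cp between 31.67 and 33.75, while the mouse-named one, with 23, lay between 33.47 and 36. The 2 targets of miR-337-3p, of 21 and 23 bases, had a Cp of 33.93 to 36 (mouse-named) and 32.63 to 34.84 (rat-named). For miR-381-3p the human-named assay (22 bases) had a Cp of 33.70 to 35.79, while the rat-named one (18 bases) stood at 36 in every pool. For miR-540-3p, with targets of 20 and 22 bases, the mean Cp was 34.77 and 34.75. The part of target length in these differences was not tested. The targets of miR-667-3p and miR-337-3p are shown as examples of how assays of one name differ.
mouse-named miR-667-3p assay: ugacaccugccacccagcccaag
rat-named miR-667-3p assay: ugacaccugccacccagcccaa
mouse-named miR-337-3p assay: uucagcuccuauaugaugccu
rat-named miR-337-3p assay: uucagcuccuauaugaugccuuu

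By the rat-named assay miR-667-3p had its lowest Cp, 31.67, in the CDTX + SHAM pool of D4. The Cp of the other pools lay between 32.73 and 33.75. Both assays of miR-379-3p also had their lowest Cp in this pool, at 32.45 and 32.69, with the other pools between 33.20 and 35.04.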

How the data were processed

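Total RNA of pooled gastrocnemius muscles was reverse transcribed and profiled with LNA SYBR Green assays. The authors deposited Cp values (log2 scale, lower for more template) as a table before normalization. They also deposited relative expression as a ratio to reference miRNAs; tested on the values, it uses 4 references, whereas the methods name 3. A further table of fold values against the PBS + SHAM pool of D2 was not used. Here log2 relative expression was computed from Cp with the 3 references of the methods. One assay per miRNA was taken, mouse-named first and otherwise that of lower mean Cp, and 3 assays of other RNAs were left out. limma 3.58.1 (R 4.3.3) was fitted over 8 pools with injection, surgery and day for the 151 miRNAs with a mean Cp of at most 32, with Benjamini-Hochberg adjustment and a threshold of 0.05, and checked on simulated data. Pairs of pools were compared by size (2-fold), for miRNAs detected (Cp of at most 32) in each pool. Exact permutation tests used SciPy 1.17.1. Each condition is 1 pool, so a p-value covers only the spread between pools, and the number of pools limits precision. Every member with a Cp of at most 32 in at least 1 pool is named. The comparison of neighbouring members was chosen after seeing the data. The members and lists were chosen with earlier results of these data known. No assay of miR-341, miR-485 or miR-1197 was analysed here. Alternatives were other references, limits on Cp, second assays, pools left out, blocks of matched pools and a 1.5-fold threshold.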

Additional observations from a re-analysis of the deposited data

Results flagged for a closer look

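The response of miR-379-5p to CDTX differed between days in the test of that difference, at log2 1.42 (D4 minus D2, limma adjusted p = 0.0329), and the call did not survive the loss of any single pool. For miR-431-5p, whose mean Cp was above 32, the CDTX over PBS ratios were below 0 in both pairs of D2 and above 0 in both pairs of D4. The mean ratio at D4 minus that at D2 was 2.22, and this difference was not tested among the 151 miRNAs. It passed only in the wider table with a mean Cp up to 34.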

How the results depend on the processing

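For CDTX over PBS, 8 members were called, all lower, and the count was 6 to 9 over the references tried and 6 to 9 with single pools left out (7 without CDTX + SHAM at D2, of which miR-127-3p rose). It was 5 of 9 members with a Cp of at most 32 in every pool, 4 of 6 with a mean Cp of at most 30, and 13 of 24 (5 higher) with a mean Cp of at most 34, where fewer or more miRNAs were tested. miR-539-5p, miR-434-3p, miR-136-5p, miR-136-3p, miR-299-5p and miR-382-5p were called under each of the 16 to 18 alternatives that kept them. miR-539-5p and miR-382-5p were not tested under either stricter limit on Cp (at most 32 in every pool, or a mean of at most 30). miR-136-3p was not tested with a mean Cp of at most 30. The reference moved the median of all miRNAs, which was 0.09 in the main setting, to −0.23 with miR-24-3p alone, 0.34 with miR-23b-3p alone and −0.14 in the deposited values, with 40 higher and 67 lower, 67 and 36, and 43 and 61 calls, against 54 and 52. The signs of miR-379-5p (1 of 17 alternatives below 0) and miR-434-5p (14 of 17 below 0) turned under some alternatives. With each matched pair of pools as a block, 8 members were called for CDTX over PBS and 0 for SCI over SHAM, and no member's call changed. For the difference between days, the count of 1 member was 0 with the global mean, with miR-24-3p alone, with a mean Cp of at most 30 (where miR-379-5p, at 30.41, was not tested) and in each of the 8 fits without a pool (0 to 0), and 3 with a mean Cp of at most 34. SCI over SHAM, D4 over D2 and injection by surgery kept 0 members called in every setting. Over the 4 CDTX over PBS pairs, 14 member values of 40 were 2-fold apart, against 9 with miR-23b-3p alone, 46 of 96 with a mean Cp of at most 34 and 28 at 1.5-fold. Over the 4 SCI over SHAM pairs it was 2 of 49, against 1 with the global mean, 14 of 96 with a mean Cp of at most 34 and 11 at 1.5-fold. The cause of these changes was not tested. A Cp above 32 comes from few template copies and is the least precise reading.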
